A study of Drosophila melanogaster with 3 samples.

Results

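The genes described here encode the proteins of the mitochondrial ribosome that carry an mRpL or mRpS symbol, and the question is where peaks of the transcription factor Senseless lay at them in the fly embryo. All protein-coding genes of Drosophila melanogaster whose symbol starts with mRpL or mRpS were taken from the Ensembl BDGP6 annotation, which gave 73 of 13945 genes on the main chromosome arms. The rule uses the symbol and no peak value, although the family was picked for description with earlier results of these data known. The symbols put 47 genes in the large subunit and 26 in the small subunit. Senseless tagged at its C terminus with green fluorescent protein (GFP) was precipitated with an antibody against GFP from whole transgenic embryos of mixed sex, aged 4 to 14 hours by the source description. A separate age label holds a value that cannot be an embryo's age and was not used. The line carries the fusion as a stably expressed insertion, and whole embryos mix cells that make Senseless with cells that do not, so no cell type can be told apart. The labels give 3 biological replicates of this 1 genotype, with chromatin sonicated to 200 to 800 bp, and they form 1 group without a contrast between conditions. Library depth is not known from the peak lists used here.

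Mitochondrial ribosomes translate the few messages encoded in mitochondrial DNA, all of them for subunits of the respiratory chain and the ATP synthase. Their protein components are encoded in the nucleus, made in the cytosol and imported. Some descend from bacterial ribosomal proteins and others exist only in mitochondria. Senseless itself is a zinc finger protein of the Gfi1 family, best known for its role in precursors of sensory organs, and its recognition sequence has the core AAATCA.

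The sequences under 6 of the 10 strongest start summits of the family are shown first, to let the DNA under the summits be seen. mRpL41, which had the strongest, and mRpL34 are left out because sequence of their chromosome arm is not printed here, and mRpL23 because its summit lay in an exon; the 6 are the strongest of the rest. A summit is the position in a peak where the authors' caller placed the highest signal. The stretches come from the RefSeq FASTA of the dm6 assembly, run 5′ to 3′ on the strand of the mitochondrial ribosomal protein gene, reach up to 75 bases to each side of the summit and stop at any annotated exon. The locations are chr2L:13835386-13835536 on the minus strand for mRpS23, chr3R:15229438-15229588 on the plus strand for mRpS10, chr2L:4850528-4850640 on the minus strand for mRpS2, chr2L:16329185-16329335 on the minus strand for mRpL4, chr2L:4945382-4945532 on the minus strand for mRpL24 and chr2L:10386406-10386556 on the plus strand for mRpS7. All 6 lie upstream of the gene's own start, in DNA that the annotation leaves outside exons. Capitals mark AAATCA, read as TGATTT on the other strand, and TATAAA, read as TTTATA. The summit is base 76, except in mRpS2, where it is base 38 because the stretch ends at the neighbouring exon.
mRpS23: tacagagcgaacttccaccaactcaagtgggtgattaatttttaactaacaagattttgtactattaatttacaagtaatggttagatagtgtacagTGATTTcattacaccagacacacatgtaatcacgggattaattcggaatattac
mRpS10: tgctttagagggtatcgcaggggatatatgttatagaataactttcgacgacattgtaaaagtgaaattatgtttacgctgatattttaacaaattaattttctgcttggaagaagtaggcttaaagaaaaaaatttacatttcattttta
mRpS2: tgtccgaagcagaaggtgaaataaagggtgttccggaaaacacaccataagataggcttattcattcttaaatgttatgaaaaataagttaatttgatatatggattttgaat
mRpL4: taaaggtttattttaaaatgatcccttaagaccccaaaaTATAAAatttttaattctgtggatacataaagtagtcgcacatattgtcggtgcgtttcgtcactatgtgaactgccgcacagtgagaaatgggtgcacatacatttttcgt
mRpL24: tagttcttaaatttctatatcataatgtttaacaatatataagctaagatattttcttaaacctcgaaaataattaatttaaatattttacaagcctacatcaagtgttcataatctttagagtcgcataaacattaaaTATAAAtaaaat
mRpS7: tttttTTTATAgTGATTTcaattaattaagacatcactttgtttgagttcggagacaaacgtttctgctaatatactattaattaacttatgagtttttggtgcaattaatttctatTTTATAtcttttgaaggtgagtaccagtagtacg
These stretches are rich in A and T, with a GC content of 33.1% for mRpS23, 28.5% for mRpS10, 31.0% for mRpS2, 35.8% for mRpL4, 19.9% for mRpL24 and 27.2% for mRpS7. AAATCA stands in those of mRpS23 and mRpS7 and in none of the other 4. Within 50 bp of the summit the mean GC content was 31.8% ± 7.6 over the 25 genes of this family with a reproducible summit at an own start (SD over summits) and 35.2% ± 9.54 over all 1741 reproducible summits at starts of protein-coding genes.

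A reproducible summit, meaning a summit of a peak on the authors' list kept after filtering by irreproducible discovery rate (IDR), lay within 500 bp of an own transcript start in 25 of the 73 mitochondrial ribosomal protein genes (34.2%), against 2287 of 13945 protein-coding genes (16.4%). The genes of the family are short, with a median length of 909 bp over the family, and among genes of up to 1500 bp the counts were 23 of 66 (34.8%) against 443 of 4788 (9.25%). A summit that lay near 2 genes counted for both. When a summit was given only to the gene with the nearest start of any annotated gene, 12 family genes kept one (16.4%), against 11.8% of all genes. Restricting to reproducible peaks found among the strongest peaks of replicates 1 and 3, that is without replicate 2, left 15 genes (20.5%), against 11.8%. With the 1905 strongest reproducible peaks alone, 9 genes had a start summit (12.3%), against 8.77%.

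**Figure D1:**
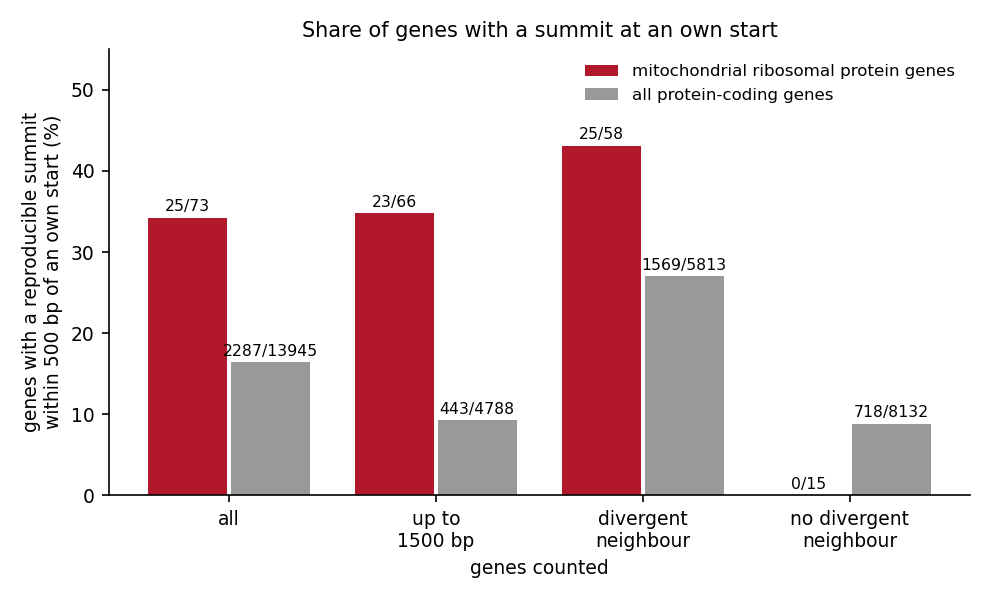
Share of genes with a reproducible summit within 500 bp of an own start (vertical axis, percent), for mitochondrial ribosomal protein genes (red) and all protein-coding genes (grey), over all genes, genes of up to 1500 bp, and genes with or without a divergent neighbour within 1000 bp. Numbers above the bars are genes with a summit over genes counted; the red bar is higher in the first 3 classes and stands at 0 of 15 in the last.

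The shares were close in both subunits. Start summits were found at 16 of 47 large-subunit genes and at 9 of 26 small-subunit genes (34.6%). With nearest-start assignment they were found at 9 of 47 (19.1%) and at 3 of 26 (11.5%), against 11.8% of all genes. Genes whose proteins have a bacterial counterpart held one in 16 of 45 cases (35.6%), and genes for proteins found only in mitochondria in 9 of 28 (32.1%). In the wider territory of gene body plus 5 kb on each side, 41 of 73 family genes had a reproducible summit (56.2%), against 42.4% of all protein-coding genes. There the large subunit had 30 of 47 (63.8%) and the small subunit 11 of 26 (42.3%). Most territory summits were at starts. With summits within 500 bp of any annotated start left out, 5 family genes had a territory summit (6.85%), against 14.7% of all genes.

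The start summits of the family fell into a small group of very strong peaks and a long tail. Peaks were ranked by the authors' signal value, a score without a stated scale, with rank 1 the strongest. Among the 100 strongest reproducible peaks stood the start summits of 4 family genes (5.48%), against 77 of all protein-coding genes (0.552%). The next family gene was at rank 886, so no start summit of the family lay between rank 61 and that rank.

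mRpL41, a large-subunit protein found in mitochondria only, had the strongest summit, at rank 14 in the pooled list and at ranks 14, 12 and 17 in replicates 1, 2 and 3. Its signal was 1736 in the pooled list and 472, 712 and 547 in the replicates, and its summit at position 15217756 of arm 2R lay 139 bp upstream of the start. mRpS23, a small-subunit protein also without a bacterial counterpart, ranked 16 in the pooled list and 16, 19 and 14 in the replicates, with signals of 1685 pooled and 440, 660 and 590 by replicate. In none of the replicates did either gene leave the 20 strongest peaks.

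mRpS10, kin of the bacterial small-subunit protein S10, had its summit at rank 21, with ranks of 22, 16 and 33 in the replicates and a pooled signal of 1539. mRpL23, whose bacterial and mammalian relatives stand at the exit of the peptide tunnel, had rank 61 pooled and 55, 69 and 83 by replicate, with a pooled signal of 1046. Its summit, at position 2373627 of arm 3L, lay inside an exon of the gene, 51 bp downstream of the nearest own start. These 4 genes lay on 4 different arms, and each kept a rank under 100 in all 3 replicates.

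The 6 other genes of the 10 strongest were weaker by a wide margin. mRpS2 ranked 886 pooled and 711, 952 and 1117 in the replicates, with a pooled signal of 339. mRpL4, whose bacterial relative lines the peptide tunnel, ranked 1011 pooled and 1215, 1270 and 778 by replicate. The strongest summit in the territory of mRpL4 was a different peak, at rank 140, which lay 177 bp from the start of cact.

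mRpL34 ranked 1086 pooled and 2340, 799 and 1036 by replicate. mRpL24 ranked 1198 pooled, and its ranks of 1355, 783 and 3190 differed 4.07 times between the highest and the lowest replicate. mRpS7, whose bacterial relative binds in the head of the small subunit, ranked 1467 pooled and 982, 1781 and 1994 by replicate. For mRpS26, ranked 1952 pooled, the replicates gave 1103, 2851 and 4520, so its peak was outside the 3811 strongest of replicate 3. That number, 3811, is the length of the reproducible list, and the same number of strongest peaks was taken from each replicate.

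**Figure D2:**
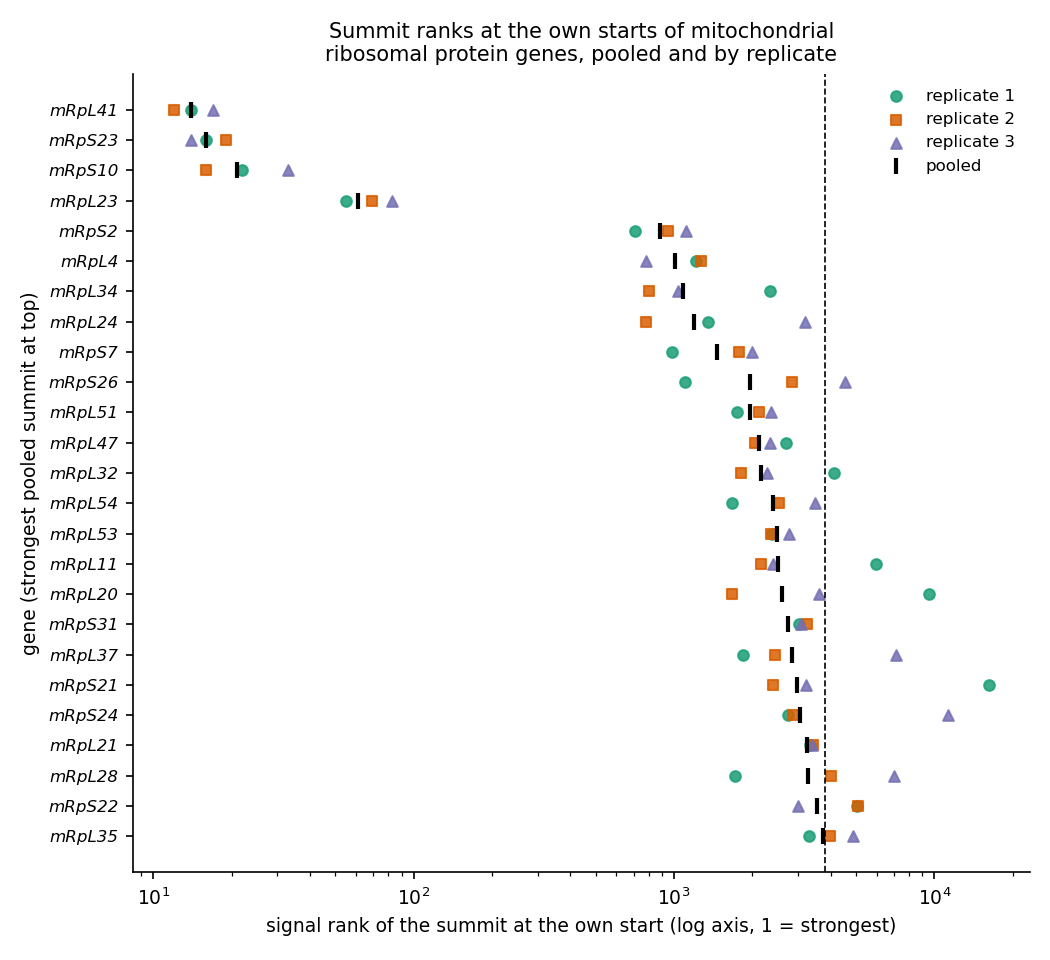
Signal rank (horizontal log axis, 1 is the strongest) of the summit at the own start for the 25 mitochondrial ribosomal protein genes with a reproducible one, strongest at the top. Black ticks are the pooled list and coloured symbols the 3 replicates; the dashed line marks rank 3811, and the first 4 genes stay under rank 100 in every replicate while the tail spreads across the line.

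The other 15 genes with a reproducible start summit had pooled ranks between 1956, for mRpL51, and 3741, for mRpL35. Over all 25 the median pooled rank was 2160, against 1742 over all protein-coding genes with a reproducible start summit. Taken over every gene with a pooled peak at an own start, whether reproducible or not, the median was 4366 for 58 family genes (79.5% of the family) and 6500 for 6920 protein-coding genes (49.6%). A peak at the start was thus present in a larger share of the family than of all genes, and the reproducible ones had the weaker median rank.

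A start summit among the 3811 strongest peaks was present in 21, 27 and 21 family genes in replicates 1, 2 and 3, which is 31.5% ± 4.73 (SD, n = 3 replicates) against 16.3% ± 0.361 of all protein-coding genes. In all 3 replicates at once it was present in 15 family genes (20.5%), against 11.0% of all genes. Of the 25 genes with a reproducible start summit, 15 had one among the strongest peaks of all 3 replicates, 7 in 2 replicates and 3 in 1. Over all protein-coding genes with a reproducible start summit, 1526 of 2287 had one in all 3 replicates (66.7%). Among genes with a reproducible start summit, such support was thus not more frequent in the family. Across the 46 family genes with a peak at an own start in each replicate list, Spearman's rho between ranks was 0.69 for replicates 1 and 2, 0.61 for 1 and 3 and 0.75 for 2 and 3, a description across genes that share libraries and peak calling.

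Among the 46 family genes with a start peak in all 3 replicate lists, the ranks of 3 spread most between replicates. Genes missing from a list have no such ratio. mRpL43 ranked 6637, 2048 and 24460, an 11.9-fold spread. mRpL42 ranked 19634, 2646 and 4782, and mRpS21 ranked 16203, 2392 and 3217. For mRpL42 and mRpS21 it was replicate 1 that ranked the peak low, and for mRpL43 it was replicate 3. mRpS21 is on the reproducible list at rank 2980, and the other 2 are not.

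The list ends amid the family. The weakest genes inside it were mRpS22 at rank 3553 and mRpL35 at 3741, with pooled signals of 146 and 142. Just outside stood mRpS16 at rank 3983, mRpS18B at 3990, mRpL42 at 4039, mRpL18 at 4342 and mRpL43 at 4390, with pooled signals between 127 and 136. In all, 33 family genes had a pooled start summit below the reproducible list, and 15 had none within 500 bp. A pooled start summit was thus present at 58 of 73 family genes (79.5%), against 6920 of 13945 protein-coding genes (49.6%). A reproducible one was present at 34.2% and 16.4%. For 6 of the 15 family genes without a pooled one, mRpL10, mRpL38, mRpS28, mRpS29, mRpS34 and mRpS35, no replicate list held a peak there either. That last count was made for the family only. mRpL10 is kin of the bacterial protein that anchors the ribosomal stalk, and the mammalian counterpart of mRpS29 is the GTP-binding protein DAP3; these genes were singled out after their values were seen.

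Another 16 family genes had a reproducible summit in their territory but not at an own start. Over all 13945 protein-coding genes, 5912 had a territory summit, 2287 of them at an own start. For the 16 family genes, the start nearest to the strongest such summit belonged to another gene in all 16, which was not counted over all genes. The strongest was 4730 bp upstream of mRpL19, at rank 89, 205 bp from a tyrosine tRNA gene. Next came summits in the territories of mRpL33 at rank 249, with norpA as the gene of the nearest start, mRpS18B at rank 309, near Pyroxd1, mRpL18 at rank 673, near Nacalpha, and mRpL36 at rank 1045, near Cds. Such summits were assigned to the family gene by distance alone, and which gene they act on was not tested. The remaining 32 family genes had no reproducible summit in the territory.

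Start summits of the family lay upstream of the genes. Of the 25 summits, 23 were upstream of the nearest own start (92.0%), against 86.7% over all protein-coding genes with a start summit. The median was 152 bp upstream, against 131 bp over all such genes, and it was 124.5 bp for the large subunit and 206 bp for the small subunit. The 2 exceptions were mRpL23 and mRpL54, whose summit lay 1 bp downstream of its start. In 23 of the 25 genes the summit was within 250 bp of the start. A 250 bp window gave 31.5% of the family and 13.3% of all protein-coding genes, against 34.2% and 16.4% with 500 bp. The gene's own start was the nearest start of any gene for 12 summits, and another gene's start was nearer for the other 13. By nearest-start assignment 16.4% of the family kept a start summit, against 11.8% of all genes.

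Every family gene with a start summit shared its upstream region with a neighbour that is transcribed in the opposite direction. A divergent neighbour was defined as a gene on the opposite strand, pointing away, with a start within 1000 bp. This arrangement is common in the family, at 58 of 73 genes (79.5%) against 41.7% of all protein-coding genes. Reproducible start summits were found at 25 of the 58 family genes with a divergent neighbour (43.1%) and at 0 of the 15 without one, which allows a share of up to 3 in 15 by counting error. Over all protein-coding genes the shares were 27.0% with and 8.83% without a divergent neighbour, and among genes of up to 1500 bp they were 19.1% and 3.37%. A divergent neighbour was thus present at 25 of 25 family genes with a start summit, against 1569 of 2287 protein-coding genes with one (68.6%).

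The 8.83% of all genes lies within the limit of 3 in 15, so a lower share in family genes without a divergent neighbour was not detectable. Replicates 1, 2 and 3 taken alone also gave 0 of 15 each, with the same limit. With neighbours counted only up to 500 bp, 2 of the 20 family genes without a neighbour had a start summit, against 10.1% of all such genes. Of the 25 summits, 20 lay between the gene's own start and that of the neighbour. This was counted for the family only, so it does not show a trait particular to the family. The starts of the 25 pairs were 24 to 793 bp apart, with a median of 279 bp, and those of the 33 pairs without a start summit 20 to 695 bp, with a median of 285 bp. In bins of spacing chosen after the values were seen, start summits stood at 5 of 20 family genes with starts up to 150 bp apart, at 10 of 13 with 150 to 300 bp (76.9%) and at 10 of 25 beyond 300 bp (40.0%), against 26.2%, 35.3% and 23.0% of all genes with a divergent neighbour.

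**Figure D3:**
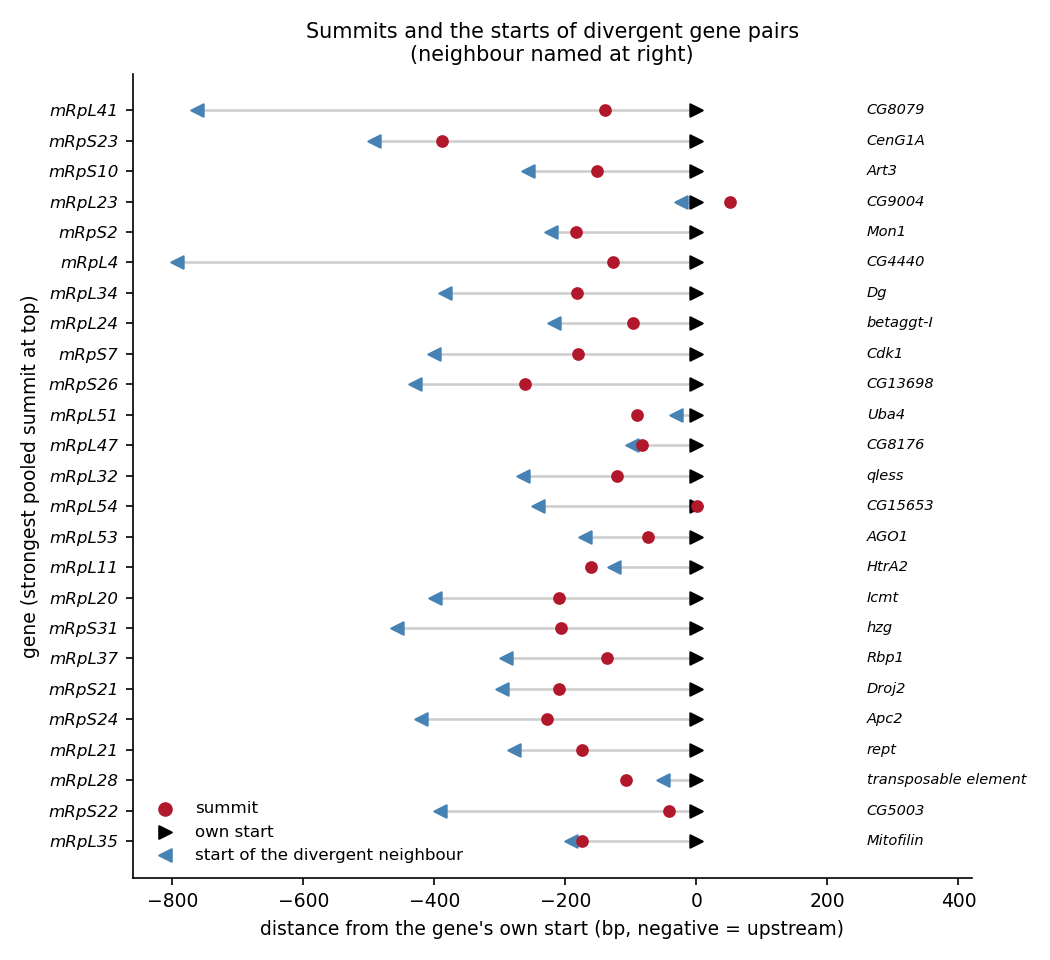
Distance in bp from the own start of each of the 25 mitochondrial ribosomal protein genes with a reproducible start summit (black triangle at 0, upstream to the left) to the summit (red circle) and to the nearest start of the divergent neighbour named at the right (blue triangle). In 20 of the 25 pairs the summit lies between the triangles, a count made for the family only.

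The neighbours had varied known roles. mRpS23 is paired with CenG1A, a regulator of Arf GTPases, and its summit lay 389 bp from its own start and 103 bp from that of CenG1A. mRpS10 is paired with Art3, an arginine methyltransferase, and its summit lay 152 bp from its own start and 105 bp from that of Art3. mRpL41 is paired with CG8079 over 762 bp, and its summit was nearer to mRpL41. For mRpS7 the neighbour is Cdk1, the kinase that drives entry into mitosis, and for mRpL34 it is Dg, the gene of dystroglycan.

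mRpS24 shares its upstream region with Apc2, a component of Wnt signalling, mRpL53 with AGO1, the Argonaute protein of the microRNA pathway, and mRpL11 with HtrA2, a mitochondrial protease. mRpL35 shares its own with Mitofilin, which organises the cristae of the inner mitochondrial membrane, and its summit lay 17 bp from the start of Mitofilin against 175 bp from its own. Neighbours were protein-coding genes in 24 of the 25 pairs. For mRpL28 the nearest divergent start was that of an annotated transposable element, and the nearest start to its summit lay 53 bp away, at another gene.

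The share differed between arms by count, with few genes on each. Start summits were found at 7 of 12 family genes on 2L (58.3%, against 15.5% of all genes there), 4 of 12 on 2R (33.3%, against 15.8%), 5 of 17 on 3L (29.4%, against 16.7%), 9 of 21 on 3R (42.9%, against 18.7%) and 0 of 11 on X (0 against 14.8%). Of the 11 genes on X, 9 have a divergent neighbour, and among all genes on X with such a neighbour 21.2% had a start summit. A count of 0 in 11 genes allows a share of up to 27.3%, so a lower share than that of all genes on X was not detectable.

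Promoters of the family, taken from 250 bp before to 50 bp after the annotated start, held the hexamer CAGCTG more often than all promoters did. At the summits of the family it was about as rare as at all start summits. Both strands were searched for each motif, and CAGCTG reads the same on both. It is the E-box form known as a core promoter element of Drosophila, and family promoters held it in 40 of 73 cases (54.8%), against 17.7% of all promoters and 1223 of 5813 promoters with a divergent neighbour. The share was 27 of 47 for the large subunit (57.4%) and 13 of 26 for the small subunit. In the 40 promoters the site nearest the start stood at a median of 7 bp downstream of it, within 50 bp of it in 35 (87.5%), against a median of 42 bp upstream and 54.2% within 50 bp over the 2467 promoters of all genes with a site.

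To show the site in its context, 30 bases around it are given for the 7 family genes with the strongest start summits whose nearest site lies within 50 bp of the start, on the arms used for sequences here. They run 5′ to 3′ on the strand of the gene, from the RefSeq FASTA of dm6, and capitals mark CAGCTG. The locations are chr3L:2373715-2373744 (mRpL23, minus strand), chr2L:4850413-4850442 (mRpS2, minus strand), chr2L:4945324-4945353 (mRpL24, minus strand), chr3R:9515873-9515902 (mRpL47, minus strand), chr3R:31252844-31252873 (mRpL32, plus strand), chr3R:14511821-14511850 (mRpL11, plus strand) and chr3R:13381790-13381819 (mRpS21, minus strand).
mRpL23: gtggttgacaatCAGCTGtttaaaacaagt
mRpS2: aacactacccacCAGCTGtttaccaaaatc
mRpL24: ttcagttctcaaCAGCTGattgcaagccgc
mRpL47: ttgttattgcttCAGCTGttttgttcggtc
mRpL32: atatcgatagcaCAGCTGtttcctcttgcg
mRpL11: cagcaataccatCAGCTGttgctgcttctt
mRpS21: agtgatattcatCAGCTGtttagcagtaca
The centre of the site lay 25 bp upstream of the annotated 5′ end in mRpL23, 8 bp upstream in mRpS2, 13 bp upstream in mRpL32 and 2 bp upstream in mRpL11. It lay 23 bp downstream in mRpL24, 21 bp downstream in mRpL47 and 5 bp downstream in mRpS21. These sites were chosen for lying within 50 bp of the start, so their place there follows from the choice. None of the stretches printed for the summits holds CAGCTG, but of those genes mRpS23, mRpS10, mRpL4 and mRpS7 have no site in the promoter at all. The stretch of mRpL32 also holds the element tatcgata, described next to the other motifs.

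The start summit share differed little with the site: 15 of 40 family genes with CAGCTG (37.5%) and 10 of 33 without it (30.3%) had a reproducible start summit. Over all protein-coding genes the counts were 534 of 2467 with it (21.6%) and 1753 of 11478 without it (15.3%). Within 50 bp of the summit CAGCTG was present at 1 of 25 family summits, mRpL54 (4.0%), against 4.71% of all start summits. In the 15 genes with both, the distance from summit to site was 32 to 251 bp, with a median of 126 bp. Among cytosolic ribosomal protein genes 9.78% of promoters held CAGCTG, among nuclear genes of the respiratory chain 23.6%, and among the other genes of mitochondrial gene expression 46.8%.

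The DNA replication-related element TATCGATA, bound by the factor DREF, was in 15 of 73 family promoters (20.5%), against 9.37% of all promoters. It was in 14.7% of all promoters with a divergent neighbour and in 30.4% of cytosolic ribosomal promoters. Among the other genes of mitochondrial gene expression 23.4% of promoters held it, and among respiratory chain genes 10.1%. It was in 0 of 25 family summit windows, against 4.19% of all start summit windows. By the limit used for counts of 0, a share below 4.19% was not detectable in 25 windows. The Senseless core AAATCA was in 24 of 73 family promoters (32.9%), against 33.5%, and within 50 bp of 2 of 25 family summits (8.0%), those of mRpS23 and mRpL54, against 13.8% of all start summits. AGATAA, the GATA motif, was at 8.0% of family summits against 7.18%, and TATAAA at 32.0% against 20.4%. A match describes letters in a window and does not show that a factor was bound there.

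**Figure D4:**
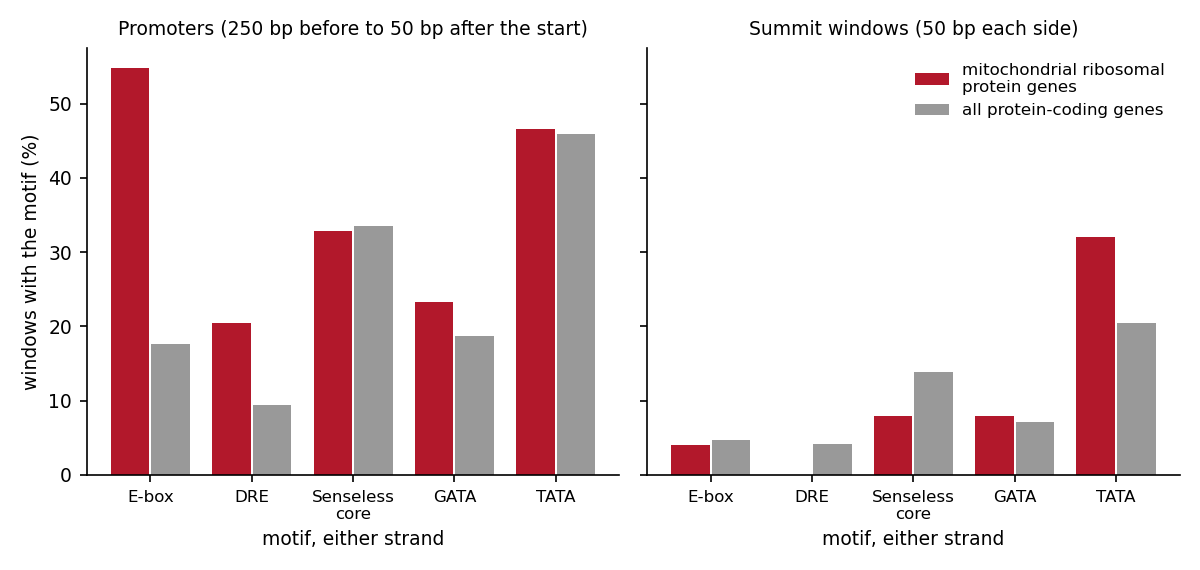
Percent of windows with each motif on either strand, for mitochondrial ribosomal protein genes (red) and all protein-coding genes (grey), in promoters (left; 73 family promoters) and within 50 bp of reproducible start summits (right; 25 family summits). The E-box CAGCTG is in 54.8% of family promoters, against 17.7% of all promoters. It is in 4.0% of family summit windows, against 4.71% of all. Promoter windows, from 250 bp before to 50 bp after the start, are longer than summit windows, so the panels are not compared with each other.

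**Figure D5:**
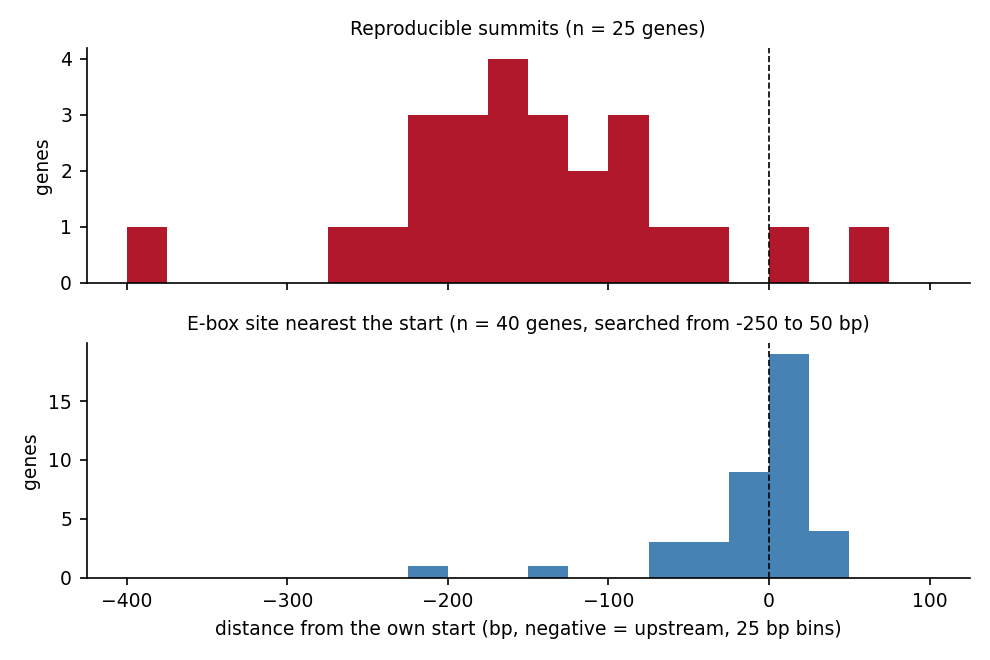
Number of mitochondrial ribosomal protein genes by distance from the own start (bp, negative is upstream, 25 bp bins), for reproducible summits (top, 25 genes) and for the E-box CAGCTG nearest the start (bottom, 40 genes). The summits have their median 152 bp upstream, and the sites gather at the start, with 35 of 40 within 50 bp.

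Start summit shares of related gene groups are given here beside the 16.4% of all protein-coding genes. Cytosolic ribosomal protein genes, the counterparts of the family in the cytosol, had a start summit in 54 of 92 cases (58.7%). The median rank was 1168.5 and the best rank 136, so none of the 92 was among the 100 strongest. Over all protein-coding genes that share was 0.552%, and a share below it was not detectable in 92 genes. Summits of the cytosolic ribosomal protein genes lay closer to the start, at a median of 29 bp upstream. Nuclear genes of the respiratory chain had one in 14 of 89 cases (15.7%), and 47 other genes of mitochondrial gene expression in 8 (17.0%). Both shares were near the 16.4% of all protein-coding genes. Those 47 hold the 2 proteins of the ribosome itself that go by other gene names, at which no reproducible start summit was found. tko, the S12 protein known for its bang-sensitive mutant, had a pooled peak at rank 6633, 61 bp upstream, and bonsai, the S15 protein, had no pooled peak at its start.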

How the data were processed

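The authors deposited peak lists in narrowPeak format on dm6 for each of 3 replicates (30000, 30000 and 27681 peaks), for the pooled replicates (28357) and for peaks passing IDR (3811, exactly the strongest pooled ones). Each deposited peak has a signal value, a score of unstated scale, a −log10 q-value and a summit offset. Per the deposited text notes, no control is listed among the inputs of the dm6 lists. For aligner and caller, names were not given in the sources used here, and depth is unknown. The dm3 lists were not used here.

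From these lists, Python 3.11.15 with pandas 2.3.3 and numpy 2.4.6 assigned summits to transcript starts of the Ensembl annotation, release 115. The replicates form 1 group, so shares are descriptions beside all protein-coding genes, and no test was run. Limits on counts of 0 are 3 counts over the number of genes and cover counting error only. RefSeq holds the same starts for all 73 genes. The other mitochondrial genes came from lists by function, where 47 of 50 symbols matched the annotation. Members, lists and motifs were chosen with earlier results of these data known.

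Genes named were the 10 strongest start summits, the 5 strongest territory-only summits, the 5 genes just below the reproducible list, the 3 most variable between replicates, tko and bonsai; names beyond these were chosen after their values were seen. Summit assignment was checked against planted summits. Alternatives varied windows, lists, replicates and the assignment of summits.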

Additional observations from a re-analysis of the deposited data

How the results depend on the processing

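The count of 25 genes with a start summit stayed within 1.5 times under other windows, start annotations and replicates taken alone (21 to 27). It was 9 with the 1905 strongest reproducible peaks, 12 with nearest-start assignment and 15 to 19 with each replicate left out. For the large subunit (16) the 1905 strongest peaks gave 5 (10.6%, against 8.77% of all genes) and nearest-start assignment 9 (19.1%, against 11.8%). Leaving 1 replicate out gave 10 to 13 (21.3% to 27.7%, against 11.8% to 12.4%), and the 7622 strongest pooled peaks 23 (48.9%, against 27.7%). For the small subunit (9) the 1905 strongest peaks gave 4 (15.4%, against 8.77%) and nearest-start assignment 3 (11.5%, against 11.8%, so not above all genes). Leaving 1 replicate out gave 5 to 7 (19.2% to 26.9%, against 11.8% to 12.4%), and the 7622 strongest pooled peaks 14 (53.8%, against 27.7%). Leaving a replicate out kept peaks found in both others, though still called on pooled data. The 41 territory genes became 5 without summits at any start (6.85%, against 14.7% of all genes) and 23 with the 1905 strongest peaks (31.5%, against 26.3%). They became 34 with any 1 replicate left out (46.6%, against 33.6% to 34.8%). The 15 genes supported in all 3 replicates became 6 with 1905 peaks per replicate (8.22%, near the 6.3% of all genes) and 24 with 7622 (32.9%, against 18.5%). The median pooled rank of 4366, against 6500 over all genes, was 6485 in replicate 1, against 6998 over all genes. The median summit position of -152 bp was -145 bp in replicate 1 and -139 bp with a 250 bp window. Over all genes these positions were -131, -128 and -108.5 bp. Among settings added after seeing the data, 1 of 15 genes without a divergent neighbour had a start summit with the 7622 strongest pooled peaks, and 0 in the others. No paired analysis was possible because the 3 samples form 1 group. With unknown depth, a missing peak does not show missing binding.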

Other observations

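Among the other genes of mitochondrial gene expression, start summits stood at 5 of 16 genes for transcription and RNA handling (31.2%). They stood at 2 of 16 mitochondrial aminoacyl-tRNA synthetases (12.5%), 1 of 4 genes of mitochondrial DNA replication and 0 of 9 translation factors. The share of all protein-coding genes was 16.4%. Each class holds few genes, and differences between the classes or from that share were not tested. By the limit used for counts of 0, a share below 16.4% was not detectable in 9 genes. PNPase, which degrades mitochondrial RNA, was at rank 20 in the pooled list and at ranks 20, 22 and 21 in the replicates, close to mRpS10. SLIRP2, an RNA-binding protein of mitochondria, was at rank 44 pooled and at 48, 41 and 51 by replicate. PolrMT, the mitochondrial RNA polymerase, ranked 1342. These genes were named after their values were seen.

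For 9 of the 25 mitochondrial ribosomal protein genes with a start summit, a different and stronger reproducible summit lay elsewhere in the territory. This was counted for the family only, so it does not show a trait particular to the family. mRpL33 had a reproducible summit just beyond the window, at rank 2269 and 569 bp upstream of its start, which the 1000 bp window includes.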
